A study of Mus musculus with 8 samples.

Results

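The genes described here build the tight and adherens junctions of the retinal pigment epithelium (RPE). They are 9 genes, taken by name from the genes listed for each library and matched through their Ensembl identifiers, of 31053 genes listed in all. The tight junction genes are *Ocln*, *Cldn19*, *F11r*, *Tjp1* and *Cgn*, and the adherens junction genes are *Cdh3*, *Cdh2*, *Ctnnb1* and *Ctnna1*. The RNA came from peeled RPE sheets of C57/Bl6 mice at P29, 4 *Bbs8*+/+ animals and 4 *Bbs8*-/- animals from the same litters. *Bbs8*-/- animals carry a constitutive knockout that is not limited to the RPE, and no treatment was given to either genotype. Sex was not determined. Each library used 30 ng of RNA and a QuantSeq 3′ kit, which reads the end of each polyadenylated transcript, and held 2389835 to 3093428 counts on genes. Values are counts relative to library size (CPM), scaled by TMM, and n is 4 libraries per genotype throughout. A transcript is tagged once at its end whatever its length, and levels of different genes are compared below as shares of a count within a library. The most abundant gene of a list is the one with the highest mean CPM over all 8 libraries, a rank of tags at transcript ends that can differ within a genotype.

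The RPE forms the outer blood-retina barrier. Tight junctions seal the space between neighbouring RPE cells, with claudins and occludin as membrane strands and ZO-1 and cingulin as the cytoplasmic plaque. Adherens junctions hold the cells together through classical cadherins, whose tails bind β-catenin, which in turn binds α-catenin and so the actin belt. β-catenin that is not held at the membrane is also the transcriptional effector of canonical Wnt signalling. The comparison asks whether loss of *Bbs8*, which encodes a subunit of the BBSome that carries proteins in primary cilia, changes the transcripts of this machinery.

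*Ttc8*, the annotated name of *Bbs8*, had 105 to 144 counts in *Bbs8*+/+ libraries and 5 to 15 in *Bbs8*-/- libraries, in the direction of the labels. All 15 RPE markers were detected, although *Best1* had at most 5 counts in any library. *Rpe65* was at 4360 to 4849 CPM in *Bbs8*+/+ and 3866 to 3952 CPM in *Bbs8*-/- libraries. Of these markers 4 were up-regulated and 4 down-regulated, *Rpe65* among the latter (edgeR, adjusted p under 0.05). That is 53.3% of the list, beside 12.3% of all genes tested. The RPE list held 3.80% to 4.00% of gene counts in *Bbs8*+/+ and 4.89% to 5.23% in *Bbs8*-/- libraries. Most of that list was *Ttr*, and without it the list held 1.75% to 1.94% and 1.82% to 1.88%. Photoreceptor markers held 5.57% to 5.80% of counts in *Bbs8*+/+ libraries, above the RPE list, and 2.47% to 2.54% in *Bbs8*-/- libraries. By share of gene counts, the lens list, the erythrocyte list and the ciliary and iris epithelium list were also lower in every *Bbs8*-/- library. The choroidal melanocyte list and the list of Müller and reactive glia were higher. Most of the glia list was *Rlbp1*, also an RPE marker, at 1839 CPM in *Bbs8*+/+ and 1889 CPM in *Bbs8*-/- libraries, and *Glul*, at 1199 and 1709 CPM. In bulk RNA of such sheets, fewer cells of a type and less RNA per cell cannot be told apart, and the part of these shifts in the junction results was not tested except where a value below bears on it.

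Of the 9 junction genes, 8 passed the filter of 1 CPM in at least 4 libraries. *Cdh3* and *Ctnna1* were up-regulated in *Bbs8*-/- RPE, no junction gene was down-regulated, and 6 were not past an adjusted p of 0.05 in edgeR's quasi-likelihood test. Over all 12889 genes tested, 12.3% were past the threshold, 5.46% up-regulated and 6.80% down-regulated. At an unadjusted p under 0.05 in that test 3 junction genes were higher, with *Ctnnb1* added, and 0 were lower. No share of all genes at an unadjusted p is given here or below, so such counts stand without a background. DESeq2 called 2 junction genes higher and 0 lower, beside 752 higher and 901 lower of all 12889 genes. *Cdh3*, *Ctnna1* and *Ctnnb1* were higher in every *Bbs8*-/- library than in any *Bbs8*+/+ library, and 0 were lower in every one. Among all genes tested the shares were 7.42% and 8.62%. The summed level of the adherens junction genes was 589.6 ± 11.7 CPM in *Bbs8*+/+ and 768 ± 27.2 CPM in *Bbs8*-/- RPE (SD, n = 4), without overlap between genotypes. Most of this sum is *Cdh3*, *Ctnna1* and *Ctnnb1*, which each separated the genotypes, so it is not a further result. *Cdh2*, also in the sum, had a lower mean in *Bbs8*-/- RPE. The summed level of the tight junction genes was 58.00 ± 4.96 CPM and 52.8 ± 7.83 CPM (SD, n = 4), with overlap.

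**Figure D1:**
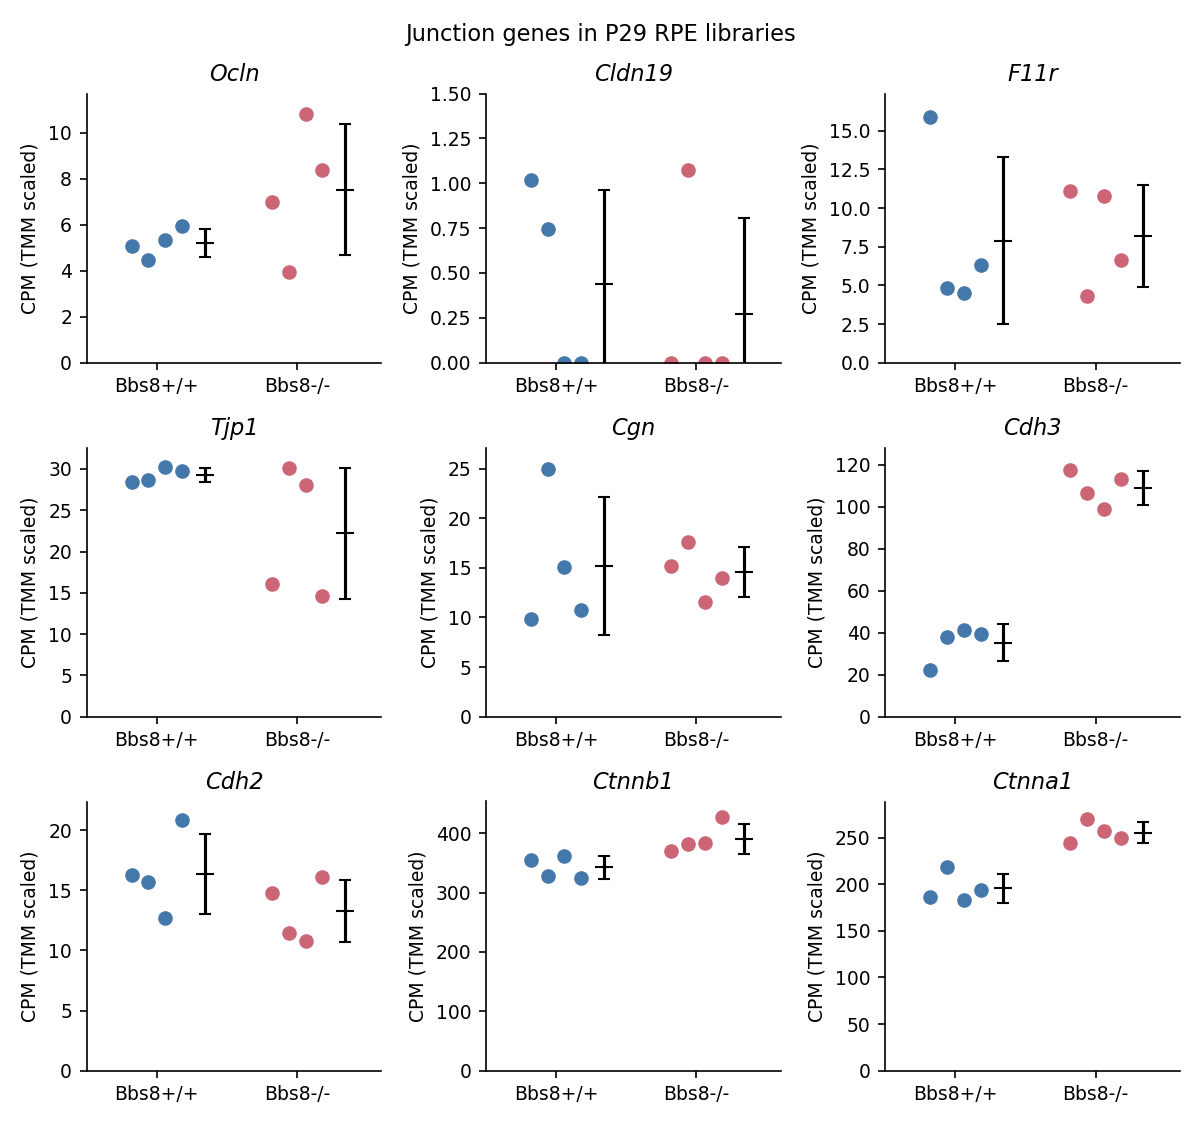
Level of each junction gene in CPM scaled by TMM, 1 point per library with replicates 1 to 4 from left to right, and the mean with its SD as a bar beside each genotype. *Cdh3*, *Ctnna1* and *Ctnnb1* separate the genotypes, while *Cldn19* lies at or under 1.07 CPM in every library.

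*Cdh3* encodes P-cadherin, a classical cadherin of the RPE and of basal cells of stratified epithelia, and showed the largest difference among the junction genes. Its counts were 66, 102, 101 and 106 in *Bbs8*+/+ libraries and 286, 298, 247 and 324 in *Bbs8*-/- libraries. The lowest *Bbs8*-/- library, at 98.8 CPM, was well above the highest *Bbs8*+/+ library, at 41.3 CPM. The mean rose from 35.3 ± 8.72 to 109 ± 8.11 CPM (SD, n = 4), a 3.10-fold increase with a 95% interval of 2.46 to 3.91. The log2 fold change was 1.63 (standard error 0.164, adjusted p = 6.66e-10). *Cdh3* (ENSMUSG00000061048) spans 106510891 to 106557297 of chromosome 8 in GRCm38, forward strand. It was past the threshold under all 17 other settings tried, with log2 fold changes between 1.33 and 1.73. The first *Bbs8*+/+ library had the lowest level, 22.3 CPM, and without it the log2 fold change was 1.46.

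*Cdh3* is also expressed by surface epithelia, and markers of ocular surface epithelium moved with genotype. Of the 10 genes of that list 5 were tested and 4 were up-regulated, and its summed level was 2.60 to 4.40 CPM in *Bbs8*+/+ and 62.0 to 82.4 CPM in *Bbs8*-/- libraries. *Krt5* and *Krt14* were at 0 in all *Bbs8*+/+ libraries and had 24 to 57 and 6 to 12 counts in *Bbs8*-/- libraries. *Krt15* and *Lad1* were also up-regulated, with the highest means of the list in *Bbs8*-/- libraries, 22.5 and 27.4 CPM. Counts of *Krt15* were 0, 0, 0 and 1 in *Bbs8*+/+ and 44, 55, 62 and 78 in *Bbs8*-/- libraries. Those of *Lad1* were 6, 5, 3 and 4 against 66, 111, 61 and 52. *Krt12*, the keratin of corneal epithelium, and *Dsg3* were at 0 in all 8 libraries. *Trp63*, which marks basal epithelial cells, was at 0 in *Bbs8*-/- libraries. Its *Bbs8*+/+ counts of 1, 3, 0 and 0 were too few for that to show a difference. The part of this list in the rise of *Cdh3* was not tested.

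*Cdh2*, which encodes N-cadherin, did not follow *Cdh3*. Its counts were 48, 42, 31 and 56 in *Bbs8*+/+ libraries and 36, 32, 27 and 46 in *Bbs8*-/- libraries. The genotypes overlapped, with 16.3 ± 3.36 and 13.3 ± 2.55 CPM (SD, n = 4). The log2 fold change was −0.30, with a 95% interval of −0.90 to 0.30 (adjusted p = 0.609). *Cdh2* (ENSMUSG00000024304) spans 16588877 to 16809246 of chromosome 18, reverse strand. *Cdh1*, which encodes E-cadherin, was close to the floor with 5 to 8 counts in *Bbs8*+/+ and 5 to 16 in *Bbs8*-/- libraries. Its log2 fold change of 0.54 was not past the threshold (adjusted p = 0.735).

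The makeup of a set of cadherins within each library does not depend on how libraries are scaled. The set used here leaves out *Cdh4*, so its shares are not shares of all cadherins. In *Bbs8*+/+ libraries *Cdh4* averaged 53.6 CPM, above *Cdh3* at 35.3 CPM, and in *Bbs8*-/- libraries 55.6 CPM, below *Cdh3* at 109 CPM. *Cdh3* took 54.5%, 68.5%, 70.1% and 61.3% of the counts on *Cdh1*, *Cdh2*, *Cdh3* and *Cdh5* in *Bbs8*+/+ libraries, out of 121 to 173 counts. In *Bbs8*-/- libraries it took 85.1%, 85.1%, 86.4% and 84.6%, out of 286 to 383 counts. Every *Bbs8*-/- library was above every *Bbs8*+/+ library, and the Wilson interval of the lowest *Bbs8*-/- value, 80.6% to 87.9%, lay above that of the highest *Bbs8*+/+ value, 62.2% to 77.0%. The mean share rose from 63.6% ± 7.16 to 85.3% ± 0.750 (SD, n = 4, two-sided exact permutation test, p = 0.0286, adjusted over 3 shares 0.0429). The share of *Cdh2* fell from 30.4% ± 7.60 to 10.3% ± 1.31 (SD, n = 4, two-sided exact permutation test, p = 0.0286, adjusted 0.0429). *Cdh2* and *Cdh3* make up most of this count, so their shares are not independent, and the lower *Cdh2* share is not a separate sign of a change in *Cdh2*. An unadjusted value of 0.0286 is the smallest that 4 libraries against 4 allow. With *Cdh4* and *Cdh11* added to the denominator, a choice made after seeing their counts, the share of *Cdh3* rose by 25.8 percentage points and that of *Cdh2* fell by 6.88 percentage points (exact permutation test, p = 0.0286 for each). The ratio of *Cdh3* to *Cdh2* counts was 1.38 to 3.26 in *Bbs8*+/+ and 7.04 to 9.31 in *Bbs8*-/- libraries.

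**Figure D2:**
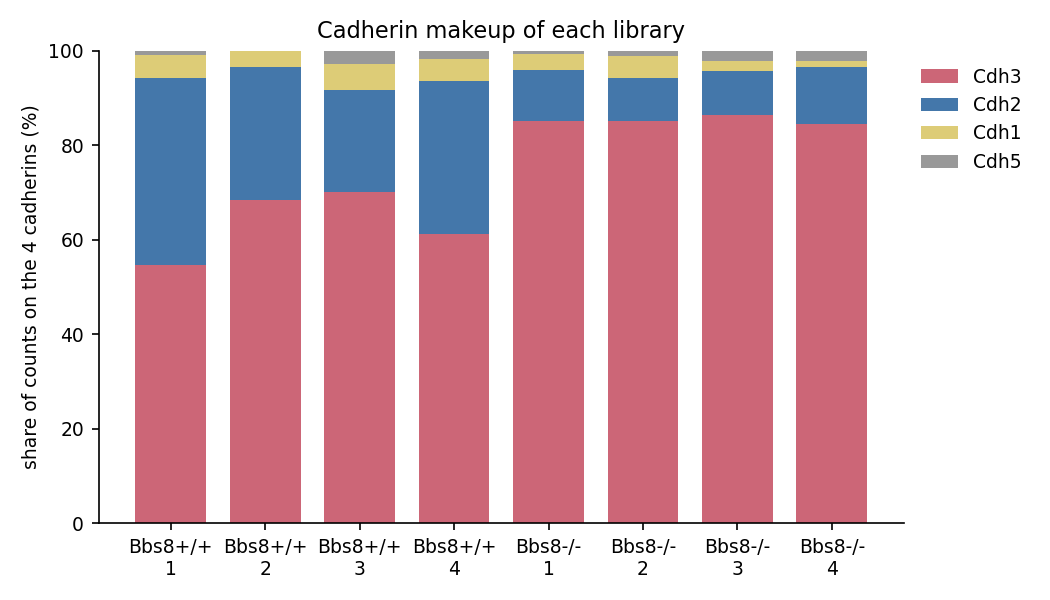
Share of the counts on 4 classical cadherin genes taken by each of them, in percent, with 1 bar per library. The *Cdh3* share reaches at most 70.1% in *Bbs8*+/+ libraries and at least 84.6% in *Bbs8*-/- libraries.

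*Ctnna1* encodes αE-catenin, which couples the cadherin complex to actin. Its levels were 186, 218, 184 and 194 CPM in *Bbs8*+/+ libraries and 244, 270.5, 257 and 249.8 CPM in *Bbs8*-/- libraries. The genotypes did not overlap, and the mean rose from 195 ± 15.8 to 255 ± 11.4 CPM (SD, n = 4). This is a 1.31-fold increase with a 95% interval of 1.14 to 1.50 (log2 fold change 0.39, standard error 0.0963, adjusted p = 0.00462). *Ctnna1* (ENSMUSG00000037815) spans 35118859 to 35254779 of chromosome 18, forward strand. The gene *Lrrtm2* lies on the opposite strand within it and had 86 counts over all libraries, against 4814 for *Ctnna1*.

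*Ctnnb1* encodes β-catenin. It had 355, 328, 362 and 325 CPM in *Bbs8*+/+ libraries and 369.5, 382, 384 and 427 CPM in *Bbs8*-/- libraries. All *Bbs8*-/- libraries were higher, but the gap between the genotypes was small beside the spread within them. The mean was 342 ± 18.9 and 391 ± 24.9 CPM (SD, n = 4), and the log2 fold change of 0.19 was not past the threshold (95% interval 0.02 to 0.36, adjusted p = 0.158). *Ctnnb1* (ENSMUSG00000006932) spans 120929216 to 120960507 of chromosome 9, forward strand. The ratio of *Ctnnb1* to *Ctnna1* counts was 1.76 ± 0.217 in *Bbs8*+/+ and 1.53 ± 0.125 in *Bbs8*-/- libraries (SD, n = 4, two-sided exact permutation test, p = 0.171).

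The calls on both catenins moved with the scaling of the libraries. Scaling by the counts on the RPE list lowered the log2 fold change of the median gene by 0.31, since *Ttr* itself had a log2 fold change of 0.60. Under it *Ctnna1* was at 0.08 (adjusted p = 0.665), *Ctnnb1* at −0.12 (adjusted p = 0.400) and *Tjp1* past the threshold at −0.70 (adjusted p = 0.0334), and over all genes 256 were up-regulated and 2724 down-regulated. Relative to the median of all genes in the same setting, *Ctnna1* stood at 0.36 there and at 0.36 with scaling by library size alone. Rescaling moves all genes by nearly the same amount, so this distance was bound to stay and does not bear on the call. Scaling by library size alone placed *Ctnnb1* past the threshold at 0.28 (adjusted p = 0.0232), as did scaling by the RPE list without *Ttr*, at 0.28 (adjusted p = 0.0310), which was added after seeing the data.

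**Figure D3:**
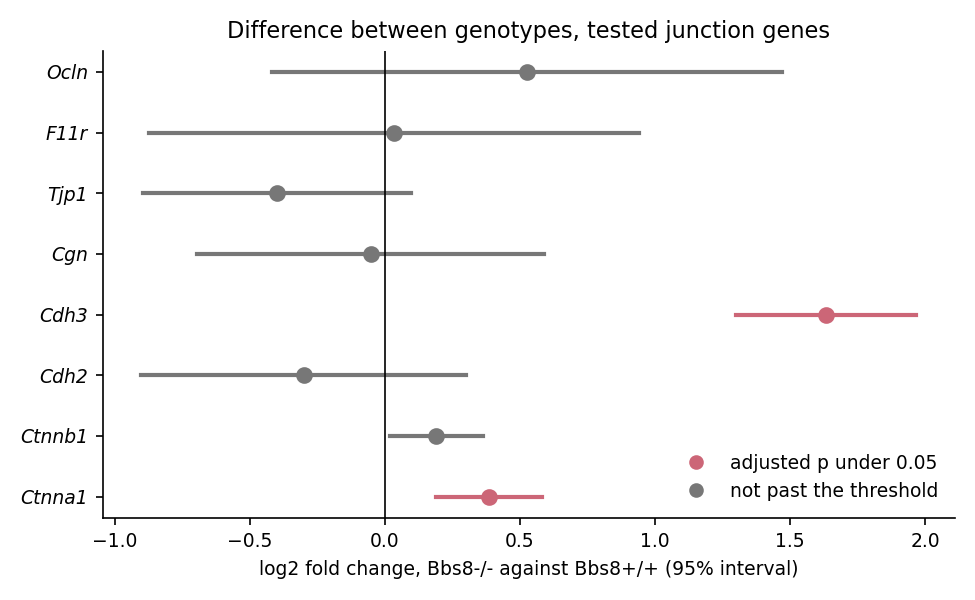
Log2 fold change of the 8 tested junction genes between *Bbs8*-/- and *Bbs8*+/+ libraries, with 95% intervals from edgeR as horizontal lines. The intervals of *Cdh3* and *Ctnna1* lie above 0, as does the lower end of *Ctnnb1*, which did not pass the adjusted threshold.

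None of the tight junction genes was past the threshold, and most had few counts. *Tjp1* encodes ZO-1, the scaffold that links claudins and occludin to actin. Its levels were even in *Bbs8*+/+ libraries, at 28.4, 28.7, 30.2 and 29.7 CPM. In *Bbs8*-/- libraries they fell apart, at 16.0, 30.1, 28.0 and 14.7 CPM, with 2 libraries near the *Bbs8*+/+ values and 2 well below them. The mean was 29.3 ± 0.851 and 22.2 ± 7.98 CPM (SD, n = 4), and the log2 fold change of −0.40 had a 95% interval of −0.89 to 0.10 (adjusted p = 0.347). Leaving out single libraries placed it between −0.58 and −0.24. *Tjp1* (ENSMUSG00000030516) spans 65296165 to 65527781 of chromosome 7, reverse strand.

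*Cgn* encodes cingulin, a plaque protein that binds ZO-1 and myosin. Its counts were 29, 67, 37 and 29 in *Bbs8*+/+ libraries and 37, 49, 29 and 40 in *Bbs8*-/- libraries. The *Bbs8*+/+ values enclosed all *Bbs8*-/- values. The mean was 15.2 ± 6.94 and 14.6 ± 2.48 CPM (SD, n = 4). The log2 fold change was −0.05, with a 95% interval from −0.69 to 0.59 (adjusted p = 0.953). *Cgn* (ENSMUSG00000068876) spans 94760069 to 94786492 of chromosome 3, reverse strand.

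The membrane proteins of the tight junction were the least covered. *Cldn19* encodes a claudin that RPE is known for, and it had 3, 2, 0 and 0 counts in *Bbs8*+/+ libraries and 0, 3, 0 and 0 in *Bbs8*-/- libraries. No library exceeded 3 counts, taken as the floor of 0.970 to 1.26 CPM, so no fold change is given and no difference could be detected from these counts. Whether its transcripts end outside the gene model used for counting was not tested. *Ocln*, which encodes occludin, had 15, 12, 13 and 16 counts in *Bbs8*+/+ libraries and 17, 11, 27 and 24 in *Bbs8*-/- libraries. In *Bbs8*-/- RPE 3 libraries lay above all *Bbs8*+/+ libraries and the other below them. The mean was 5.20 ± 0.608 and 7.53 ± 2.86 CPM (SD, n = 4). The log2 fold change was 0.53, with a 95% interval of −0.42 to 1.47 (adjusted p = 0.561). *F11r*, which encodes the junctional adhesion molecule JAM-A, had 47, 13, 11 and 17 counts in *Bbs8*+/+ libraries and 27, 12, 27 and 19 in *Bbs8*-/- libraries. The first *Bbs8*+/+ library stood far above the other 3, and the log2 fold change of 0.03 (adjusted p = 0.979) became 0.64 without it and −0.16 without replicate 3. *Cldn19* (ENSMUSG00000066058) spans 119255414 to 119262438 of chromosome 4, forward strand, *Ocln* (ENSMUSG00000021638) 100496507 to 100552718 of chromosome 13, reverse strand, and *F11r* (ENSMUSG00000038235) 171437535 to 171464603 of chromosome 1, forward strand.

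The study followed the repressor *Snai1*, whose protein binds the E-box letters CAGGTG, read as CACCTG on the other strand. In these libraries *Snai1* had 6, 2, 1 and 6 counts in *Bbs8*+/+ and 0, 4, 0 and 1 in *Bbs8*-/- samples and was not tested. Promoters of 6 junction genes, from 250 bases before to 50 after the start, were found in RefSeq's table for GRCm38, and those of *Cdh2*, *Cdh3* and *Ctnna1* were not used here. The letters, searched on both strands, were in 3 of 9 windows, of *Ocln* and *F11r*, against 20.2% of all 32851 windows of that length. The windows of *Ocln* overlap and share a match, and by gene it was 2 of 6, against 22.6% of all genes in the table. The windows of these tight junction genes are shown because they hold the match, which is in capitals, and a match is not a binding site. That of *Ocln*, chr13:100552449-100552748 on the reverse strand, holds it at positions 38 and 183 counted from the 5′ end, and that of *F11r*, chr1:171437311-171437610 on the forward strand, at position 129.
Ocln promoter: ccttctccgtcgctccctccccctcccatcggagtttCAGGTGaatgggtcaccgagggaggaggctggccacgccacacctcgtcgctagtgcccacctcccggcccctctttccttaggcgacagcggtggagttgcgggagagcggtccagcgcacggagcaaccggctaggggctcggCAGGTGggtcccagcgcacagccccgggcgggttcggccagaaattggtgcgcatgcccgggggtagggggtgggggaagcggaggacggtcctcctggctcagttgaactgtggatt
F11r promoter: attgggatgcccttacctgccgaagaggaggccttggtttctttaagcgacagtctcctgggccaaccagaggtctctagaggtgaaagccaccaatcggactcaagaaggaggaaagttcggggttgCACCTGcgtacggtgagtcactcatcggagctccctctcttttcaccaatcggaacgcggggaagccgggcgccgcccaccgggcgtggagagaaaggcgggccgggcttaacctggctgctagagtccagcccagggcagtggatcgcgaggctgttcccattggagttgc

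Among all 25 claudin genes, *Cldn19* took 0.126% ± 0.150 of the counts in *Bbs8*+/+ and 0.0671% ± 0.134 in *Bbs8*-/- libraries (SD, n = 4, two-sided exact permutation test, p = 0.714). Claudin counts came to 868 to 1246 per library, and most were on *Cldn1*. The *Cldn1* share was 69.0% ± 2.39 and 75.2% ± 4.09 (SD, n = 4, exact permutation test, p = 0.114). *Cldn2*, which encodes a pore-forming claudin, fell from 18.6% ± 2.11 to 11.9% ± 1.77 of claudin counts, without overlap (SD, n = 4, exact permutation test, p = 0.0286). The shares of *Cldn1* and *Cldn2* were chosen after their counts were seen.

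The other genes of these junctions were taken from 8 lists with 142 genes, of which 108 passed the filter. In *Bbs8*-/- RPE 10 rose and 8 fell past the threshold, 16.7% beside 12.3% of all genes, and the median log2 fold change was 0.16 beside 0.02. Among 20 tested tight junction membrane genes, *Cldn1* was up-regulated, from 261 ± 39.8 to 320.1 ± 28.3 CPM, and *Cldn2* and *Crb1* were down-regulated. *Crb1*, an apical polarity gene also expressed in photoreceptors and Müller glia, fell from 84.9 ± 10.2 to 40.8 ± 8.92 CPM (SD, n = 4, adjusted p = 8.34e-06). *Cldn1* (adjusted p = 0.0487) and *Cldn2* (adjusted p = 0.0471) were just inside the threshold and lost it in 9 and 8 of 17 other settings.

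Among 24 tested tight junction scaffold genes, 3 were up-regulated and 2 down-regulated. *Patj*, a partner of the Crumbs complex, rose from 28.5 ± 3.85 to 48.1 ± 9.44 CPM and *Amot*, which encodes the scaffold angiomotin, from 14.2 ± 2.97 to 26.0 ± 6.78 CPM. *Lin7b*, a small PDZ scaffold, had a log2 fold change of 2.65 at low levels, 1.52 ± 1.02 and 9.65 ± 5.16 CPM. *Mpdz*, a relative of *Patj*, fell from 42.3 ± 6.52 to 24.5 ± 5.65 CPM. *Ybx3*, a Y-box factor that binds ZO-1 and was the most abundant gene of the list, fell from 1188 ± 105 to 592.1 ± 37.3 CPM (SD, n = 4, adjusted p = 2.79e-13). *Amot* lost its call in 4 of 17 other settings and *Patj* in 2.

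All 9 tested cadherins and nectins, a list without *Cdh3* (1.63) and *Cdh2* (−0.30), had positive log2 fold changes, as had 6677 of all 12889 genes tested. Of these, *Cdh1*, *Cdh5*, *Cdh10* and *Cdh13* averaged at most 3.70 CPM in either genotype. Only *Nectin3* was up-regulated, from 30.4 ± 3.09 to 56.1 ± 12.5 CPM (SD, n = 4, adjusted p = 0.00100). *Nectin3* encodes a nectin that joins cells in trans. *Cdh4*, the most abundant of this list over all libraries though below *Nectin1* and *Nectin3* in *Bbs8*-/- RPE, was at 53.6 ± 4.09 and 55.6 ± 9.78 CPM (adjusted p = 0.909). Among 16 tested catenins and linkers, 0 were up-regulated in edgeR's test, against 3 at an unadjusted p under 0.05 and 0 by DESeq2. Over all genes 5.46% were up-regulated in edgeR's test, a share from which 0 of 16 cannot be told apart. The median log2 fold change of these 16 genes was 0.14, beside 0.02 for all genes. *Vezt*, which encodes the catenin-binding protein vezatin, fell from 37.1 ± 6.16 to 21.5 ± 4.85 CPM and lost its call in 3 of 17 other settings. *Ctnnd1*, which encodes the cadherin-stabilising p120-catenin, was at 37.5 ± 19.7 and 62.3 ± 10.7 CPM without passing the threshold (adjusted p = 0.0567). The first *Bbs8*+/+ library was at 8.46 CPM and the others at 43.1 to 51.5 CPM. The lowest *Bbs8*-/- library, at 48.4 CPM, lay within the latter range. *Ctnnbip1*, which encodes an inhibitor of β-catenin and was the most abundant of the list, changed by 0.17 on the log2 scale (adjusted p = 0.386).

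Among 7 tested desmosome and gap junction genes, 2 were up-regulated and 1 down-regulated. *Gja1*, which encodes the gap junction protein connexin 43, rose from 222 ± 35.7 to 327.0 ± 27.5 CPM (SD, n = 4, adjusted p = 1.34e-04). *Dsp*, which encodes the desmosomal protein desmoplakin, rose from 50.9 ± 16.2 to 76.2 ± 9.35 CPM (adjusted p = 0.0248) and lost this call in 5 of 17 other settings, and the ocular surface list was higher beside it. *Gja3*, a connexin of lens fibres, averaged 2.79 CPM in *Bbs8*+/+ libraries and was at 0 in all *Bbs8*-/- libraries, where lens markers were also low.

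Of 17 tested regulators of junctional actomyosin, 3 were up-regulated and 1 down-regulated. *Rock2*, which encodes a kinase that acts on actomyosin, rose from 120.1 ± 7.71 to 197.5 ± 17.1 CPM (adjusted p = 4.03e-06). The GTPase genes *Rap1b* and *Rac1* had log2 fold changes of 0.68 (adjusted p = 0.00174) and 0.30 (adjusted p = 0.0337), and *Rac1* lost its call in 7 of 17 other settings. *Mylk*, the myosin light chain kinase gene, fell from 347 ± 58.4 to 159.9 ± 13.0 CPM (adjusted p = 1.54e-10). *Cdc42*, the most abundant over all libraries though below *Mylk* in *Bbs8*+/+ RPE, differed by 0.18 on the log2 scale (adjusted p = 0.268).

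Of 7 tested genes known as targets of β-catenin, 0 were up-regulated in edgeR's test, against 1 at an unadjusted p under 0.05 and 0 by DESeq2. Over all genes 5.46% were up-regulated in edgeR's test, and a list of 7 cannot tell 0 from that share. The median log2 fold change of this list was 0.55, beside 0.02 for all genes. *Ccnd1*, the cyclin D1 gene, fell from 282 ± 22.9 to 166.9 ± 7.45 CPM (SD, n = 4, adjusted p = 1.87e-07). *Axin2*, a feedback inhibitor of the Wnt pathway, was higher in every *Bbs8*-/- library, at 9.45 ± 2.85 and 17.1 ± 4.15 CPM, without passing the threshold (adjusted p = 0.0831). Of 12 genes of epithelial-mesenchymal transition 8 were tested, without *Snai1*. Of these 8, 0 were past the threshold in edgeR's test, beside 12.3% of all genes, 0 were at an unadjusted p under 0.05 and 0 were called by DESeq2. A list of 8 cannot tell 0 from that share. *Vim*, the vimentin gene and the most abundant of them, was at 114 ± 22.8 and 100.5 ± 22.8 CPM. By PCR of eyecups at P29 the study found *Snail* induced and *Cdh1* and *Tjp1* reduced, and its heatmap showed genes of this transition raised. The same PCR gave *Cldn19* a downward trend that was not significant. The study also described discontinuous staining of ZO-1 protein in flatmounts of *Bbs8*-/- RPE.

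**Figure D4:**
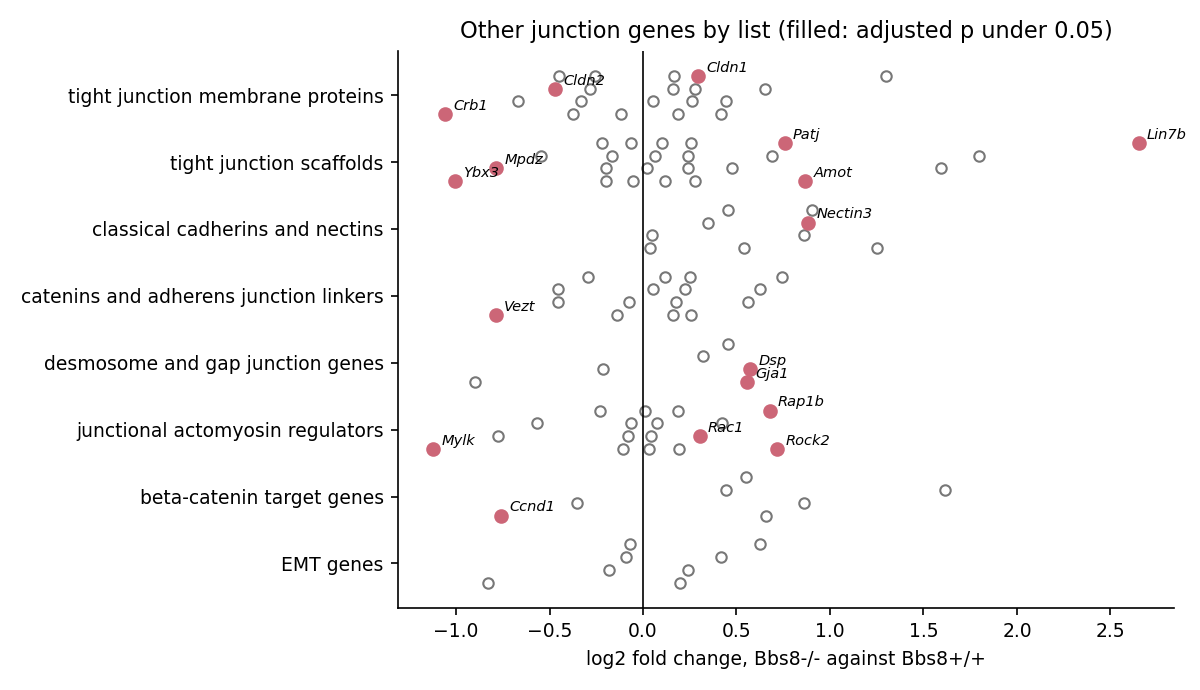
Log2 fold change between *Bbs8*-/- and *Bbs8*+/+ libraries of each tested gene of the 8 junction lists, with filled and named points past an adjusted p of 0.05; *Gja3*, at 0 in *Bbs8*-/- libraries, is not drawn. Points past the threshold lie on both sides of 0 for tight junction scaffolds, with 3 higher and 2 lower.

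Among 8428 genes averaging 10 CPM or more, those whose log2 CPM followed *Cdh3* most closely over the 8 libraries were *Polr3k*, *Igfbp7* and *Slc6a20a*, with Pearson correlations of 0.996, 0.992 and 0.991. Those that followed *Ctnna1* were *Sfrp1* (0.991), *Gmpr* (0.980) and *Gprin2* (0.979). The 8 points share the split by genotype, so that many genes that differ between genotypes correlate with each other, and the values are given as a description. All 6 of these genes were up-regulated in *Bbs8*-/- RPE, with log2 fold changes of 1.52, 1.34 and 0.54 for the first group and 0.32, 0.42 and 1.86 for the other.

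**Figure D5:**
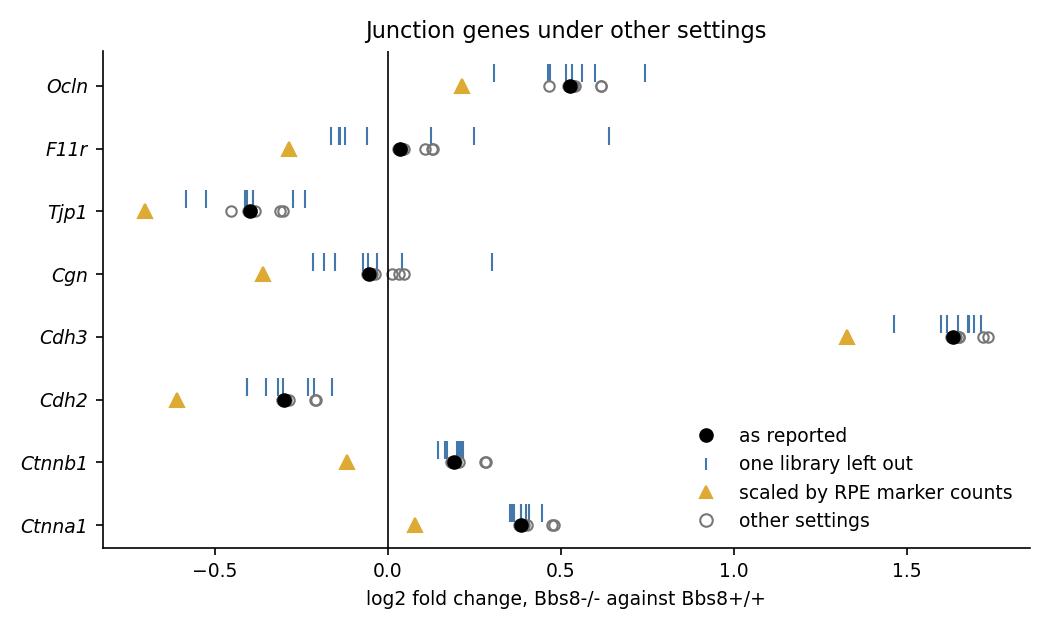
Log2 fold change of the 8 tested junction genes as reported, with each library left out, with scaling by RPE marker counts and with the remaining settings. *Cdh3* stays at or above 1.33 in all of them, while *F11r* and *Cgn* lie on both sides of 0.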

How the data were processed

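Total RNA of RPE from 4 *Bbs8*+/+ and 4 *Bbs8*-/- mice at P29 was sequenced in single-end mode at 100 bp. With STAR the authors placed reads on mm10, using Ensembl gene models, and deposited raw counts of uniquely mapped reads per gene, made with htseq-count, whose strand setting is not given in the sources used here. Reads on no gene, 51.0% to 54.2% of each library, most of them not uniquely mapped, were left out. Symbols and coordinates came from GENCODE M21 (GRCm38), which named 30934 of 31053 identifiers. No junction gene shared a run as long as a read with any of 22 paralogs tried, the longest being 37 bases.

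The 12889 genes at 1 CPM or more in at least 4 libraries were tested in R 4.3.3 with edgeR 4.0.16 (TMM, quasi-likelihood F test, two-sided, Benjamini-Hochberg adjustment over all genes, threshold 0.05), as the study used edgeR and this threshold. The common biological coefficient of variation was 0.213. Shares within a library were compared with exact permutation tests in Python 3.11.15. Named were *Ttc8*, the 9 junction genes, *Cdh1* and *Snai1*, up to 4 called genes and the most abundant gene of each list, and genes of like pattern. Alternatives were DESeq2 1.42.0, the likelihood ratio test, other scalings and filters, a replicate block and each library left out. The junction genes and lists were chosen with earlier results of these data known. The scripts were tested on simulated data. At 2389835 to 3093428 counts per library, 3 counts are 0.970 to 1.26 CPM, and floors and Wilson intervals cover counting error only.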

Additional observations from a re-analysis of the deposited data

Results flagged for a closer look

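In 6 of 90 groups of 4 libraries examined, 1 library stood apart from the other 3 by Dixon's test, which chance gives in about 1 group in 20. *F11r* was at 15.9 CPM in the first *Bbs8*+/+ library, and the other 3 lay between 4.50 and 6.32 CPM, and without it the log2 fold change moved from 0.03 to 0.64. *Rock2* (131.7 CPM) and *Mylk* (434.3 CPM) were high in the same first *Bbs8*+/+ library, and *Gja3* (5.59 CPM) in the second. The first *Bbs8*+/+ library also had the lowest *Cdh3* (22.3 CPM) and *Ctnnd1* (8.46 CPM) of its genotype. Groups that share a library are not independent, and why this library stood apart was not tested. *Cldn19* held 0.269% of claudin counts in the second *Bbs8*-/- library, from 3 counts, and 0 in the other 3. Erythrocyte markers held 0.208% of counts in the fourth *Bbs8*-/- library, the lowest of that genotype.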

How the results depend on the processing

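*Cdh3* was up-regulated under all 17 other settings and *Ctnna1* under 16. Scaling by RPE marker counts moved most counts: 256 genes rose and 2724 fell, 1 and 1 among the junction genes (*Cdh3* and *Tjp1*) and 3 and 20 among the lists. It also turned the log2 fold changes of *F11r* (−0.29), *Ctnnb1* (−0.12), *Cldn1* (−0.016) and *Rac1* (−0.0033). Scaling by that list without *Ttr*, added after seeing the data, gave 1024 and 629 and called *Ctnnb1* (0.28), and by library size alone 1005 and 657; *Cgn* turned to 0.048 and 0.031. With each library left out, genes on the lists numbered 6 to 10 up-regulated, 6 without the second *Bbs8*+/+ library, and 5 to 8 down-regulated, 5 without its replicate 3 or 4. *F11r* then ranged from −0.16 to 0.64 (−0.14 and −0.06 without *Bbs8*+/+ replicates 2 and 4, and −0.14 and −0.12 without *Bbs8*-/- replicates 1 and 3). *Cgn* ranged from −0.22 to 0.30, with 0.04 without *Bbs8*-/- replicate 3, and the microglia share difference ranged from −0.0030 to 0.00025 percentage points, the latter without *Bbs8*+/+ replicate 1. The difference in the *Cdh2* share ranged from −23.1 to −17.0 percentage points, and without any 1 *Bbs8*-/- library, at −20.7 to −19.7, its exact permutation p was 0.0571.

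Same-numbered libraries did not deviate together (correlations of −0.055 to 0.0053), so the numbers are taken not to pair animals. With the replicate block, 650 genes were up-regulated and 827 down-regulated, *Cgn* was at 0.011, and the differences in the *Cdh2* share (−20.1) and the *Cdh3* share (21.7 percentage points) had a permutation p of 0.125, the smallest that 4 pairs allow. The block changed no call on a junction gene in edgeR's test. Few counts limit the tight junction genes: *Cldn19* was at the floor, whose cause was not tested, and *Ocln* and *F11r* had 11 to 47 counts per library. Expression at the transcript end says nothing of splicing or protein.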
